A study of Mus musculus with 26 samples.

Results

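The 35 genes described here encode the enzymes and transporters of glycolysis and lactate export, the regulators that set flux at phosphofructokinase and pyruvate dehydrogenase, the enzymes of the pentose phosphate pathway, and 5 genes of the hypoxia response. They were taken by gene name, with earlier results of these data known, from 23170 gene symbols that could be read in all libraries. Each of the 35 had 1 row with a usable estimate in every library and passed the filter for testing, which asked for at least 1 FPKM (fragments per kilobase of transcript and per unit of sequencing depth) in at least 4 of 26 libraries and left 11665 genes. The libraries came from thymocytes of C57BL/6 mice 6 to 8 weeks old and fall into 5 groups. DN1eP-NKT cells (4 libraries) had been grown from DN1eP thymocytes for 10 days on a layer of OP9/Dll-1 stromal cells with IL-2 and IL-7, each at 5 ng/ml. DN1eP precursors (4 libraries) were lineage-negative cells sorted as CD44+, CD25-, CD24low, CD5+, CD27+, Ly108- and CXCR3+ that lacked the Vα14Jα18 receptor at the surface. Thymic NKT cells, which bound CD1d loaded with αGalCer, comprised stage 1 (NKT-1, CD44-negative and NK1.1-negative, 5 libraries), stage 2 (NKT-2, CD44-positive and NK1.1-negative, 7 libraries) and stage 3 (NKT-3, CD44-positive and NK1.1-positive, 6 libraries). No group carried a mutation or transgene according to the labels.

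Glycolysis converts glucose into pyruvate. Lactate dehydrogenase then reduces pyruvate to lactate, which leaves the cell through monocarboxylate transporters, or pyruvate dehydrogenase sends it to the mitochondria. The pentose phosphate pathway branches off at glucose 6-phosphate and supplies NADPH and ribose for nucleotides. In T cells, activation and growth are known to raise the enzymes and transporters of glycolysis, and the hypoxia factor encoded by Hif1a is a known activator of many of these genes.

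The promoters of 6 members are shown as examples: Hk2, Pgk1, Slc16a3, Ldha and Bnip3, which hold the core described next, and Ldhb as the isoform partner of Ldha. No result below rests on these letters. Each line gives the 250 bases before the RefSeq transcription start on GRCm38.p6, read on the strand of the gene. Capitals mark the letters ACGTG, the core of the hypoxia response element, or the same core on the other strand (CACGT). Where both overlap, as in CACGTG, which is also an E-box, they count as 1 place.
Hk2 (chr6:82774455-82774704, minus strand): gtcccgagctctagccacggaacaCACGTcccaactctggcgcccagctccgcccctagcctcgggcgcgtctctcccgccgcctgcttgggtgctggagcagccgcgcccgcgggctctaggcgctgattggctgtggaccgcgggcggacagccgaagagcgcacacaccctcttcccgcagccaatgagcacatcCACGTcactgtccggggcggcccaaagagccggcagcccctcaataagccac
Pgk1 (chrX:106186850-106187099, plus strand): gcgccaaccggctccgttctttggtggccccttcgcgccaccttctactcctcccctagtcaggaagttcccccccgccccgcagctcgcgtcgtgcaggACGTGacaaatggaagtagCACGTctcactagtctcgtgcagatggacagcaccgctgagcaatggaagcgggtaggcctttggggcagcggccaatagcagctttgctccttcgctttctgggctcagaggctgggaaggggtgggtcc
Slc16a3 (chr11:120948817-120949066, plus strand): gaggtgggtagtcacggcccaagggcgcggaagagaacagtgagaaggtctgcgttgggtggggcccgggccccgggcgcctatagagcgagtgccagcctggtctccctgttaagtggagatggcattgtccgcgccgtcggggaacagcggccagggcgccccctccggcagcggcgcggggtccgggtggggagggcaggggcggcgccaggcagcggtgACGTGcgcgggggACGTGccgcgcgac
Bnip3 (chr7:138909507-138909756, minus strand): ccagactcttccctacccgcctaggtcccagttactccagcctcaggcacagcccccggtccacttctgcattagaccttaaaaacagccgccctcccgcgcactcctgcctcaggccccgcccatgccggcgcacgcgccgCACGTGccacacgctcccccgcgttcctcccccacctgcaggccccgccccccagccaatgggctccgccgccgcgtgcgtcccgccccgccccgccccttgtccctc
Ldha (chr7:46845554-46845803, plus strand): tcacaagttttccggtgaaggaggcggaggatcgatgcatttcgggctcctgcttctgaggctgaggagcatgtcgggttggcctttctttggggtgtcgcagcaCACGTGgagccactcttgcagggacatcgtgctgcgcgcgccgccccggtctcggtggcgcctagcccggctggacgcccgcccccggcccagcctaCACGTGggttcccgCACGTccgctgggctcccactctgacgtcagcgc
Ldhb (chr6:142507958-142508207, minus strand): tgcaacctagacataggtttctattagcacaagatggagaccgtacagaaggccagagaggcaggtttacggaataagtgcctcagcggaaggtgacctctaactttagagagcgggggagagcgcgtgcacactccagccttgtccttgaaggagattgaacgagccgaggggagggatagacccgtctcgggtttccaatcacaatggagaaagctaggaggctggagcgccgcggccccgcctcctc
The core stood at 2 places before the starts of Hk2 (-226 and -52), Pgk1 (-150 and -131) and Slc16a3 (-27 and -14), at 1 before that of Bnip3 (-108), and at 3 before the Ldha start shown (-145, -48 and -34). No place was found before a second RefSeq start of Ldha or before that of Ldhb. RefSeq promoter windows that also take in 50 bases after the start were available for 34 of the 35 members, all but Slc2a3. Of these, 19 (55.9%) had the core in at least 1 window, against 21.8% of all genes with a window and 19.6% of all 32851 windows. Members that were lower in stage 3 occurred both with the core, such as Ldha and Pgk1, and without it in any window, such as Tpi1 and Tkt. A match is a run of letters and not a shown binding site, and its part in the results was not tested.

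The libraries did not all behave alike, and 1 technical division runs through every comparison. Among genes that reached 1 FPKM, the median level was 12.96 to 13.91 FPKM in 13 libraries, called the higher-median set, and 7.58 to 9.81 in the other 13, called the lower-median set. The higher-median set holds all DN1eP-NKT libraries, NKT-1 libraries 1 and 2, NKT-2 libraries 1 to 4 and NKT-3 libraries 1 to 3. The lower-median set holds all DN1eP libraries, NKT-1 libraries 3 to 5, NKT-2 libraries 5 to 7 and NKT-3 libraries 4 to 6. The labels name a pair of library kits and do not say which library was made with which. Within thymic NKT cells, 22 members were higher and 6 lower in the higher-median set (72.5% of all genes tested differed, 52.3% upward and 20.3% downward). Under upper-quartile scaling these counts were 13 and 8, and the all-gene median shifted by -0.38. The gap was 4.77 on the log2(FPKM + 1) scale for Ddit4, 4.05 for Pgls and 3.39 for Rpia. DN1eP was therefore compared with the 9 thymic libraries of the lower-median set and DN1eP-NKT with the 9 of the higher-median set. The deposited 95% interval of a gene of 20 to 100 FPKM had a median half-width of 5.35% to 23.7% of the value, depending on the library. It was 18.8% to 23.7% in DN1eP libraries 2 to 4 and 6.02% in library 1, against 5.35% to 6.11% in the 9 thymic libraries of the lower-median set. DN1eP libraries 2 to 4 thus differ in precision from every library they are compared with. This cannot be told apart from a difference between the cells, and its part was not tested.

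Several libraries stood apart within their group. DN1eP library 1 correlated with the lower-median NKT-3 libraries at 0.945 to 0.959 and with DN1eP libraries 2 to 4 at 0.883 to 0.907, which correlated with each other at 0.934 to 0.941. It held 271 FPKM of the myeloid gene Mpo, against 18.0 to 28.8 in the other DN1eP libraries. Over a list of 8 myeloid and mast cell genes that includes Mpo, however, its sum of 428 FPKM lay within the 411 to 472 FPKM of the others. NKT-2 libraries 6 and 7 and NKT-3 libraries 5 and 6 gave 24.6% to 29.6% of their FPKM to their 10 highest genes, against 10.1% to 22.7% elsewhere. NKT-2 library 6 and NKT-3 library 5 also carried B cell transcripts (6 genes, summed 137 and 42.5 FPKM) and erythroid transcripts (7 genes, 199 and 827 FPKM). The gate gene Klrb1c, which encodes NK1.1, followed the labels, at 440 to 563 FPKM in stage 3 libraries and at most 48.6 in stages 1 and 2. It was also high in DN1eP, at 170 to 495 FPKM, and stood at 11.3 to 56.8 FPKM in DN1eP-NKT. Zbtb16, a transcription factor gene that defines NKT cells, was at 4.51 to 6.90 FPKM in DN1eP-NKT and at 12.8 to 113 FPKM in thymic libraries of the same set. Whether replicates are separate animals is not in the labels, so p-values reflect the variation among the libraries at hand, which may be technical.

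**Figure D1:**
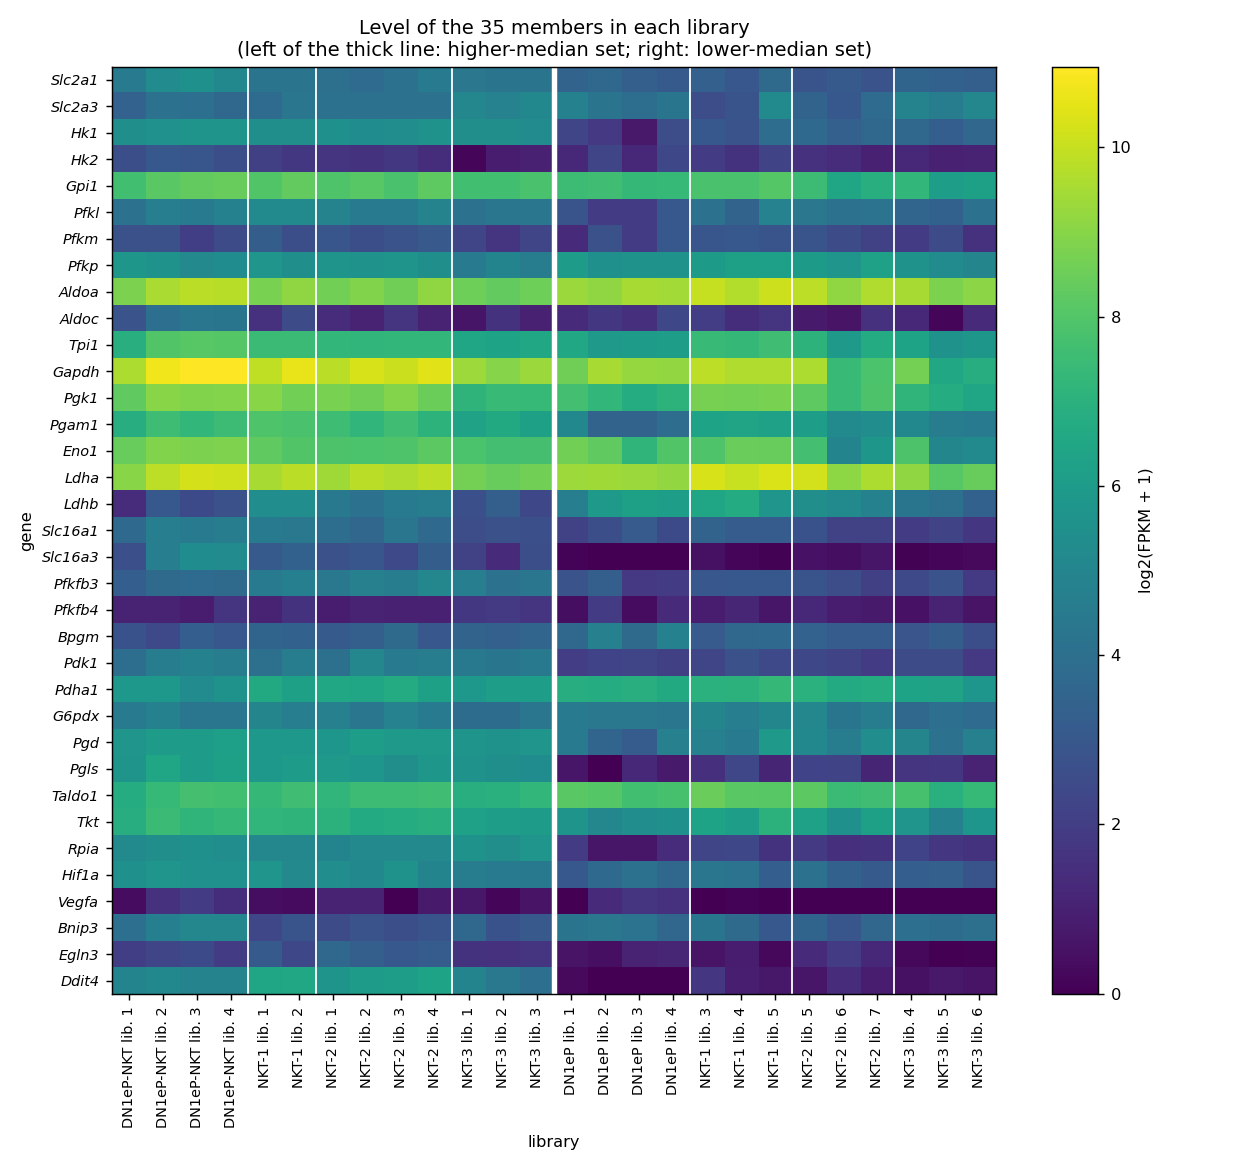
Level of each of the 35 members (rows, ordered by step of the pathway) in each of the 26 libraries (columns), as log2(FPKM + 1). White lines separate groups, and the thick line separates the higher-median set on the left from the lower-median set on the right; Ddit4, Pgls, Rpia and Slc16a3 are low throughout the right side, while Ldhb is low in DN1eP-NKT and in stage 3.

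Stage 3 NKT cells had lower levels of most of the pathway than stage 1 cells. Of the 35 members, 22 fell and 1, the glucose transporter gene Slc2a3, rose (limma, Benjamini-Hochberg adjusted over all genes tested; 26.5% of all genes fell and 10.6% rose, 37.2% in all). The median difference of the members was -0.79 on the log2(FPKM + 1) scale, against -0.16 over all genes tested. With upper-quartile scaling, which shifted the all-gene median by 0.16 in this comparison, 19 members were lower and 2 higher. The 22 had a lower mean in both library sets, and 10 of them passed the test in each set alone: Hk2, Pfkp, Tpi1, Pgk1, Pgam1, Ldha, Ldhb, Slc16a1, G6pdx and Tkt. In the higher-median set alone 14 members fell and 0 rose (14.0% and 8.14% of all genes, 22.2% in all), and in the lower-median set alone 17 fell and 1 rose (20.1% and 5.24% of all genes, 25.4% in all). In bulk RNA, fewer cells that express a gene and less RNA per cell cannot be told apart.

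At the entry of glucose, the transporters and hexokinases moved differently from one another. Slc2a3 (mm9 chr6:122677827-122692763) stood at 13.1 and 18.5 FPKM in stage 1, 15.8 to 16.4 in stage 2 and 32.7, 27.99 and 33.1 in stage 3 in the higher-median set. In the lower-median set it was 4.96, 6.24 and 36.6 FPKM in stage 1, 10.3, 7.04 and 13.1 in stage 2 and 29.1, 23.7 and 32.3 in stage 3. Stage 3 thus lay above stage 2 in every library of both sets, while NKT-1 library 5 was higher than any stage 3 library. The rise was 1.13 ± 0.31 (log2 difference ± SE, adjusted p = 0.00515) over stage 1 and 1.17 ± 0.28 (adjusted p = 0.00238) over stage 2. Without NKT-2 libraries 6 and 7 and NKT-3 libraries 5 and 6 the difference from stage 2 was again 1.17, with an adjusted p of 0.0745. Slc2a1, the other main glucose transporter gene, differed by 0.05 ± 0.18 between stages 3 and 1 (adjusted p = 0.872), with 19.4, 17.6 and 17.4 FPKM in stage 3 and 17.3 and 17.7 in stage 1 of the higher-median set. Hk2, the inducible hexokinase gene, was at 3.26 and 2.43 FPKM in stage 1, 1.66 to 2.39 in stage 2 and 0.157, 0.839 and 0.989 in stage 3 of the higher-median set. It fell by 1.03 ± 0.22 from stage 1 (adjusted p = 0.000574), and every stage 3 library of either set lay below every stage 1 library of the same set. Hk1, the constitutive hexokinase gene, differed by 0.12 ± 0.23 (adjusted p = 0.730), at 38.3 to 41.4 FPKM in stage 3 and 41.0 and 43.0 in stage 1 of the higher-median set. Its ratio to Hk2 in that set was 38.7 to 263 in stage 3 libraries and 13.2 and 16.9 in stage 1 libraries.

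The enzymes between glucose 6-phosphate and pyruvate fell together. Gpi1, the 3 phosphofructokinase genes Pfkl, Pfkm and Pfkp, the aldolase genes Aldoa and Aldoc, Tpi1, Gapdh, Pgk1, Pgam1 and Eno1 all passed the test, with differences between -1.72 (Gapdh) and -0.65 (Aldoa). Pgk1, an enzyme that makes ATP, was at 510 and 389 FPKM in stage 1, 362 to 480 in stage 2 and 138, 168 and 162 in stage 3 of the higher-median set. In the lower-median set it was 419, 409 and 424 FPKM in stage 1, 302, 165 and 235 in stage 2 and 144, 108 and 85.2 in stage 3. Within each set its stage 3 values lay below all stage 1 and 2 values, and it fell by 1.71 ± 0.18 (adjusted p = 4.15e-08). Pgam1, the next enzyme, was at 241 and 223 FPKM in stage 1, 135 to 189 in stage 2 and 78.4, 98.7 and 74.6 in stage 3 of the higher-median set, and fell by 1.55 ± 0.23 (adjusted p = 8.65e-06). Gapdh fell by 1.72 ± 0.37 (adjusted p = 0.000694), with 1.06 ± 0.55 in the higher-median set, where it did not pass alone, and 2.38 ± 0.49 in the lower-median set, and the fall was 1.07 without NKT-2 libraries 6 and 7 and NKT-3 libraries 5 and 6. Eno1 fell by 1.30 ± 0.45 (adjusted p = 0.0282), but without the same 4 libraries the difference was -0.36 (adjusted p = 0.273). In these 4 libraries Eno1 was at 29.4 to 55.1 FPKM, against 202 FPKM in NKT-2 library 5 and 240 FPKM in NKT-3 library 4. Leaving those 4 out gave 18 members lower and 1 higher; Aldoa, Aldoc and Taldo1 also lost their call, and single libraries decided the calls of Aldoa, Aldoc, Pfkl, Pfkm and Eno1. Gapdh, Ldha, Pgk1, Tpi1, Eno1, Aldoa and Pgam1 have near-identical processed pseudogene copies, so how reads were split among copies is uncertain for them.

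Both lactate dehydrogenase genes fell, the B subunit more than the A subunit. Ldhb (mm9 chr6:142438769-142456463) was at 40.5 and 40.8 FPKM in stage 1, 20.3, 16.3, 22.7 and 22.9 in stage 2 and 5.38, 8.83 and 4.14 in stage 3 of the higher-median set. In the lower-median set it was 85.4, 107 and 51.7 FPKM in stage 1, 41.2, 36.1 and 27.0 in stage 2 and 18.1, 15.6 and 9.71 in stage 3. The 3 stages did not overlap within either set. The fall from stage 1 to stage 3 was 2.50 ± 0.29 (adjusted p = 1.54e-07). Ldha (mm9 chr7:54101174-54110997) was at 740 and 906 FPKM in stage 1, 667 to 922 in stage 2 and 401, 334 and 392 in stage 3 of the higher-median set. It fell by 1.40 ± 0.22 (adjusted p = 1.34e-05). The ratio of Ldha to Ldhb was 18.3 and 22.2 in stage 1, 32.9 to 55.1 in stage 2 and 37.8 to 94.6 in stage 3 of the higher-median set. In the lower-median set the ratio was 9.69 to 25.2 in stage 1 and 17.8 to 34.8 in stage 3, which overlapped. Stage 2, at 14.98 to 29.2 there, overlapped both. Slc16a1 encodes a monocarboxylate transporter for lactate. In the higher-median set Slc16a1 was at 21.1 and 20.04 FPKM in stage 1 and 11.4 to 18.9 in stage 2. In stage 3 of the same set it was at 4.94, 5.51 and 5.33 FPKM. Its fall from stage 1 to stage 3 was 1.55 ± 0.20 (adjusted p = 1.05e-06). Slc16a3, the transporter gene that is typical of strongly glycolytic cells, differed by -0.64 ± 0.33 (adjusted p = 0.132). In the lower-median set its highest thymic value was 0.579 FPKM.

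**Figure D2:**
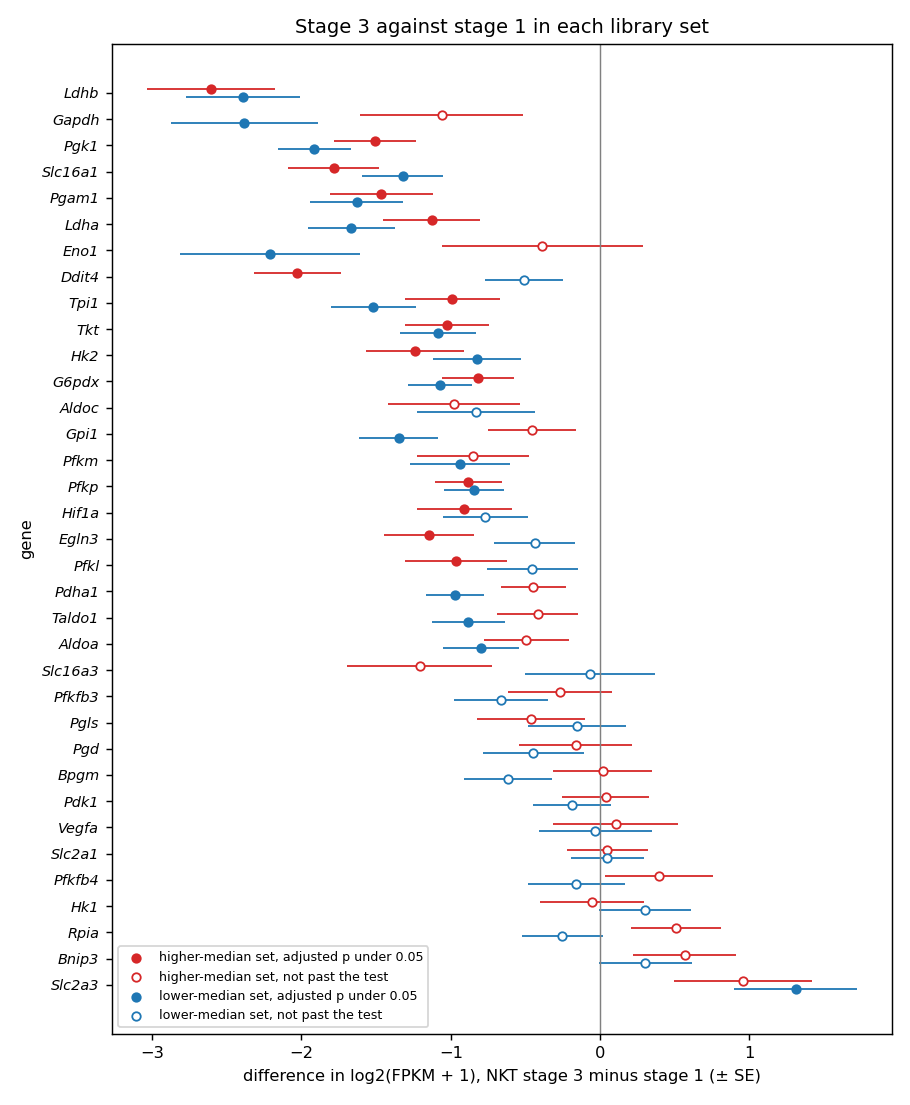
Difference in log2(FPKM + 1) between stage 3 and stage 1 for each of the 35 members (rows), separately in the higher-median set (red, 3 and 2 libraries) and the lower-median set (blue, 3 and 3 libraries); points are estimates, bars ± 1 SE, and filled points passed the test at an adjusted p under 0.05. Ldhb lies farthest left in both sets, near -2.60 and -2.39, and Slc2a3 farthest right.

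In the pentose phosphate pathway, the first enzyme and both transferases fell while the other oxidative enzymes did not pass the test. G6pdx, which catalyses the first and limiting step, was at 30.3 and 25.1 FPKM in stage 1, 18.7 to 27.7 in stage 2 and 13.7, 13.6 and 19.0 in stage 3 of the higher-median set. It fell by 0.94 ± 0.16 (adjusted p = 3.98e-05), and its stage 3 values lay below all stage 1 values in both sets. Tkt (transketolase) fell by 1.05 ± 0.19 (adjusted p = 9.03e-05) and Taldo1 (transaldolase) by 0.65 ± 0.18 (adjusted p = 0.00643). Pgd, Pgls and Rpia differed by -0.30, -0.31 and 0.13, with adjusted p-values of 0.380, 0.350 and 0.666.

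Regulators of flux and hypoxia genes were mixed. Pdha1, a subunit of pyruvate dehydrogenase, fell by 0.71 ± 0.15 (adjusted p = 0.000391), whereas Pdk1, a kinase that inhibits that enzyme, differed by -0.07 ± 0.19 (adjusted p = 0.808). Pfkfb3 and Pfkfb4, which make and break the bisphosphate activator of phosphofructokinase, differed by -0.47 ± 0.23 and 0.12 ± 0.24 and did not pass. Hif1a was at 52.1 and 35.01 FPKM in stage 1, 30.1 to 46.4 in stage 2 and 23.4, 22.8 and 20.7 in stage 3 of the higher-median set, and fell by 0.84 ± 0.22 (adjusted p = 0.00315). Ddit4, an inhibitor of mTOR signalling that is induced by hypoxia and other stress, was at 86.5 and 90.3 FPKM in stage 1, 50.3 to 79.7 in stage 2 and 29.9, 20.1 and 15.2 in stage 3 of that set. The fall of Ddit4 was 1.27 ± 0.19 over both sets (adjusted p = 1.08e-05), with 2.03 ± 0.29 in the higher-median set and 0.51 ± 0.26 in the lower-median set, where thymic values reached at most 2.30 FPKM. Egln3, an oxygen-dependent hydroxylase that marks the hypoxia factor for destruction, fell by 0.79 ± 0.20 (adjusted p = 0.00291). Bnip3, a mitophagy gene, and Vegfa differed by 0.43 ± 0.23 and 0.04 ± 0.28 and did not pass.

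More members passed the test between stages 3 and 2 than between stages 2 and 1. Stage 3 against stage 2 gave 16 members lower and 1 higher (18.4% of all genes fell and 10.6% rose, 29.0% in all), with a median of -0.47 against -0.06 over all genes; with upper-quartile scaling it was 13 lower and 3 higher. Stage 2 against stage 1 gave 0 of 35 at the adjusted threshold in limma (1.0% of all genes passed, 0.566% higher and 0.437% lower), with a median of -0.24 against -0.12 over all genes. At an unadjusted p under 0.05 in limma there were 12 members. The share of all genes at that looser threshold was not worked out, so the 12 cannot be set against the 1.0%. Within the sets, stage 2 against stage 1 gave 0 members in each (0.214% of all genes in the higher-median set, 0.120% higher and 0.0943% lower, and 0.480% in the lower-median set, 0.300% higher and 0.180% lower). Stage 3 against stage 2 gave 12 lower and 0 higher in the higher-median set (12.9% and 8.64% of all genes, 21.6% in all) and 7 lower and 1 higher in the lower-median set (7.88% and 3.78%, 11.7% in all). The stage 2 to stage 1 values with the smallest adjusted p were Ldhb at -1.06 ± 0.28 (adjusted p = 0.0683), Slc16a1 at -0.73 ± 0.20 (adjusted p = 0.0785) and Egln3 at 0.74 ± 0.20 (adjusted p = 0.0702). Egln3 was the member that differed most between stages 3 and 2, at 2.03, 1.94 and 2.12 FPKM in stage 3 and 11.8, 8.87, 7.17 and 8.12 in stage 2 of the higher-median set. It fell by 1.53 ± 0.18 (adjusted p = 3.50e-07), passed in both sets and did not overlap between these stages in either. Pgk1 fell by 1.22 ± 0.17 (adjusted p = 2.98e-06), Ldhb by 1.43 ± 0.26 (adjusted p = 0.000144), Ldha by 1.10 ± 0.20 (adjusted p = 0.000121) and Ddit4 by 0.97 ± 0.18 (adjusted p = 0.000137). The calls of Gapdh (-0.94), Hk2 (-0.57), Hif1a (-0.55) and Pfkm (-0.64) were each lost on leaving out any 1 of 7 or 8 libraries. Transcripts of the cell cycle moved with the stages: the sum of 10 such genes was 388 to 928 FPKM in stages 1 and 2 and 78.3 to 116 FPKM in stage 3, and its part in these results was not tested.

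DN1eP-NKT cells, set against the mean of the 3 thymic stages in their library set, had higher levels of 10 members and lower levels of 4 (13.5% of all genes were higher and 9.10% lower, 22.6% in all). The higher ones were Slc2a1, Hk2, Aldoa, Aldoc, Tpi1, Pgk1, Slc16a1, Slc16a3, Vegfa and Bnip3, and the lower ones Ldhb, Pfkfb3, Pdha1 and Ddit4. Against single stages, 3 members were higher and 4 lower than in stage 1 (8.49% and 6.76% of all genes, 15.2% in all), 6 higher and 5 lower than in stage 2 (11.1% and 7.96%, 19.1% in all), and 15 higher and 1 lower than in stage 3 (15% and 8.39%, 23.4% in all). Slc2a1, Aldoc and Bnip3 were higher than in each of the 3 stages. For Aldoc the difference of 1.78 ± 0.42 from stage 1 was 1.30 and no longer passed without NKT-1 library 1 (adjusted p = 0.144), nor did it pass with a pseudocount of 0.1 (adjusted p = 0.0573). These comparisons share the DN1eP-NKT libraries. Without NKT-1 library 1, 3 members were called against stage 1. Without DN1eP-NKT library 1, the counts were 12 higher and 4 lower against the mean.

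Transcripts of the stromal layer were present in the cultured cells and must be read beside these values. The sum of 10 stroma genes, among them Col1a1, Fn1 and Cxcl12, was 90.03, 313, 455 and 449 FPKM in DN1eP-NKT libraries 1 to 4 and at most 1.35 FPKM in the thymic libraries of the same set, where all 10 genes were below 1 FPKM. Library 1, with the lowest sum, lay within the thymic range for 22 members, above it for 5 and below it for 8. Library 2 lay above that range for 15 members, library 3 for 14 and library 4 for 18, and each of them lay below it for 3. The shares of all genes outside the range were not worked out, so these counts are not read as particular to the members. How much of each difference came from the layer was not tested. B cell transcripts (6 genes) summed to 16.8 to 24.6 FPKM in DN1eP-NKT and to at most 6.69 FPKM in thymic libraries of that set. Most of the sum was Cd22, whereas Pax5 was listed at 0 in all 4 libraries, and their part was not tested. Cell cycle transcripts summed to 722 to 1124 FPKM in DN1eP-NKT and to 703 to 928 FPKM in stages 1 and 2 of that set.

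Hk2, Aldoc, Bnip3 and Eno1 were above every thymic value of the set in all 4 DN1eP-NKT libraries. The share of all genes with this arrangement was not worked out. Each of the 4 libraries held stroma transcripts, library 1 a sum of 90.03 FPKM, and their part was not tested. Hk2 (mm9 chr6:82675021-82724448) was at 5.26, 7.19, 6.56 and 5.16 FPKM in DN1eP-NKT libraries and at most 3.26 in thymic libraries, a difference of 1.39 ± 0.22 (adjusted p = 2.31e-05). Against stage 1 alone the Hk2 difference of 0.87 ± 0.31 did not pass in limma (adjusted p = 0.0613). Aldoc, an aldolase best known from brain, was at 5.95, 14.9, 18.9 and 18.3 FPKM against at most 4.84, a difference of 2.36 ± 0.30 (adjusted p = 7.31e-07). Bnip3 was at 14.8, 25.5, 32.3 and 32.3 FPKM in DN1eP-NKT libraries and at 4.04 to 11.8 in thymic libraries, a difference of 1.89 ± 0.23 (adjusted p = 5.06e-07). None of the 4 libraries overlapped the thymic ones for these 3 genes, although library 1 was the lowest of the cultured libraries for Aldoc and Bnip3. Eno1 was at 340, 470, 446 and 456 FPKM and at most 312 in thymic libraries, without passing the test against any single stage or their mean.

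Other members were high in DN1eP-NKT libraries 2 to 4 but within the thymic range in library 1. Slc2a1 (mm9 chr4:118781350-118809934) was at 21.0, 38.2, 44.8 and 33.4 FPKM in DN1eP-NKT libraries and at 13.2 to 22.04 in thymic libraries, a difference of 0.90 ± 0.18 (adjusted p = 0.000452). Slc16a3 was at 5.48, 25.1, 39.2 and 37.7 FPKM and at 1.57 to 9.60 in thymic libraries, a difference of 1.79 ± 0.32 (adjusted p = 0.000133), or 2.39 without library 1. Tpi1 was at 115, 254, 276 and 267 FPKM against 81.6 to 174, and Slc16a1 at 12.2, 24.8, 22.04 and 23.9 FPKM against 4.94 to 21.1. Aldoa, Gapdh and Ldha showed the same arrangement, with Gapdh and Ldha passing only against stage 3 (differences of 1.35 ± 0.46 and 1.26 ± 0.27). For each of these genes the cultured library with the lowest stroma sum had the lowest level. That library also stood apart technically. Its deposited intervals had a median half-width of 6.59%, against 15.8% to 21.8% in DN1eP-NKT libraries 2 to 4. Its FPKM summed to 508302, against 680727 to 770095 in those libraries. Library 1 of NKT-1 and of NKT-2 had narrow intervals too (6.56% and 7.36%). Stroma and this technical difference cannot be told apart here, and neither was tested. The calls of Tpi1 and Slc16a1 against the thymic mean were lost without DN1eP-NKT library 2, and that of Tpi1 also without library 3 or 4. Those of Pgk1 and Vegfa against the mean, of Slc2a1 against stage 1 and of Gapdh against stage 3 were lost without any of several libraries.

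**Figure D3:**
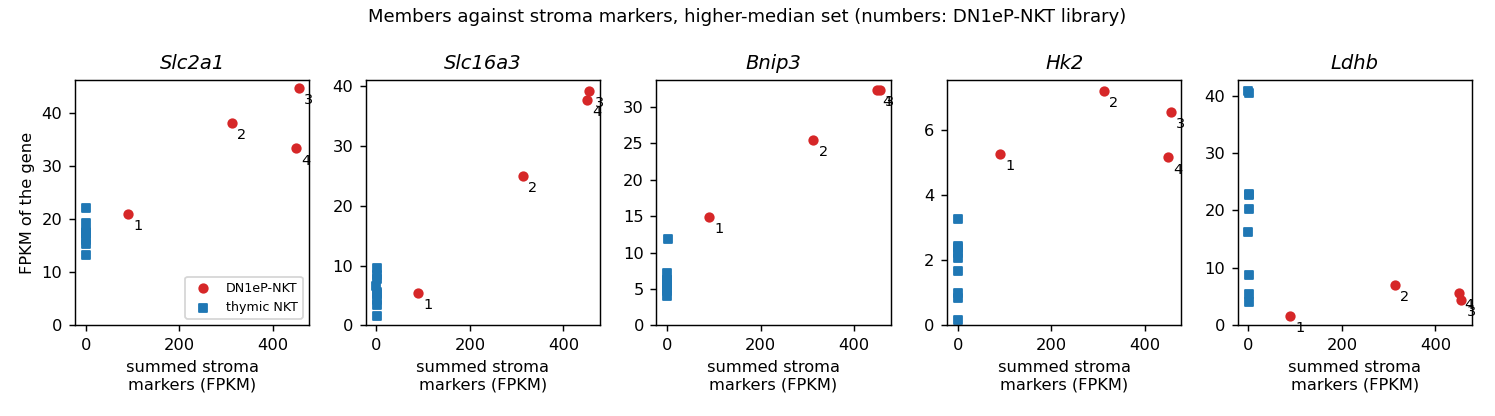
FPKM of 5 members (panels) against the summed FPKM of 10 stroma genes in the higher-median set; red circles are DN1eP-NKT libraries with their number, blue squares thymic NKT libraries. Library 1 sits among the thymic libraries for Slc2a1 and Slc16a3 and above them for Bnip3 and Hk2, and all 4 DN1eP-NKT libraries sit at 7.09 FPKM or lower for Ldhb.

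Of the members that were lower in DN1eP-NKT, Ldhb and Pfkfb3 also had their lowest cultured level in library 1, which for them lay farthest from the thymic cells. Ldhb was at 1.59, 7.09, 4.47 and 5.60 FPKM in DN1eP-NKT libraries, within or below the stage 3 values of 4.14 to 8.83 and far below those of stages 1 and 2. Its difference was -2.99 ± 0.41 from stage 1 (adjusted p = 4.44e-06), -2.03 ± 0.33 from stage 2 (adjusted p = 4.67e-05) and -0.39 ± 0.36 from stage 3 (adjusted p = 0.494). The ratio of Ldha to Ldhb was 132 to 319 in DN1eP-NKT libraries, against 18.3 to 94.6 in thymic libraries of the set, with no overlap. Its highest value was that of library 1, where Ldha, at 506 FPKM, lay below every stage 1 and stage 2 library of the set. Pfkfb3 was at 8.72, 12.7, 13.1 and 12.9 FPKM in DN1eP-NKT libraries and at 16.3 to 32.4 in thymic libraries, a difference of -0.90 ± 0.23 (adjusted p = 0.00513). Pdha1 was at 55.8, 56.2, 37.7 and 48.2 FPKM against 56.5 to 105, a difference of -0.68 ± 0.14 (adjusted p = 0.000870). All 4 cultured libraries lay below every thymic library for Pfkfb3 and for Pdha1. Ddit4 was at 29.9, 33.2, 29.0 and 29.3 FPKM, below every stage 1 and stage 2 value and among or above the stage 3 values, a difference of -0.69 ± 0.19 from the mean (adjusted p = 0.00926) that did not pass with a pseudocount of 0.1 (adjusted p = 0.148). Egln3, at 2.77 to 4.58 FPKM, was lower than in stage 2 and passed against no other stage (-1.12 ± 0.23, adjusted p = 0.000718). Slc2a3, at 10.0 to 16.0 FPKM, was lower than in stage 3 (-1.20 ± 0.38, adjusted p = 0.0241), a call lost without any of 4 single libraries. Of the pentose phosphate genes, Tkt alone passed, with a difference of 1.04 ± 0.24 from stage 3 (adjusted p = 0.00175). Pdk1, Hk1, Pfkfb4, Bpgm and G6pdx were called in none of the 4 comparisons.

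**Figure D4:**
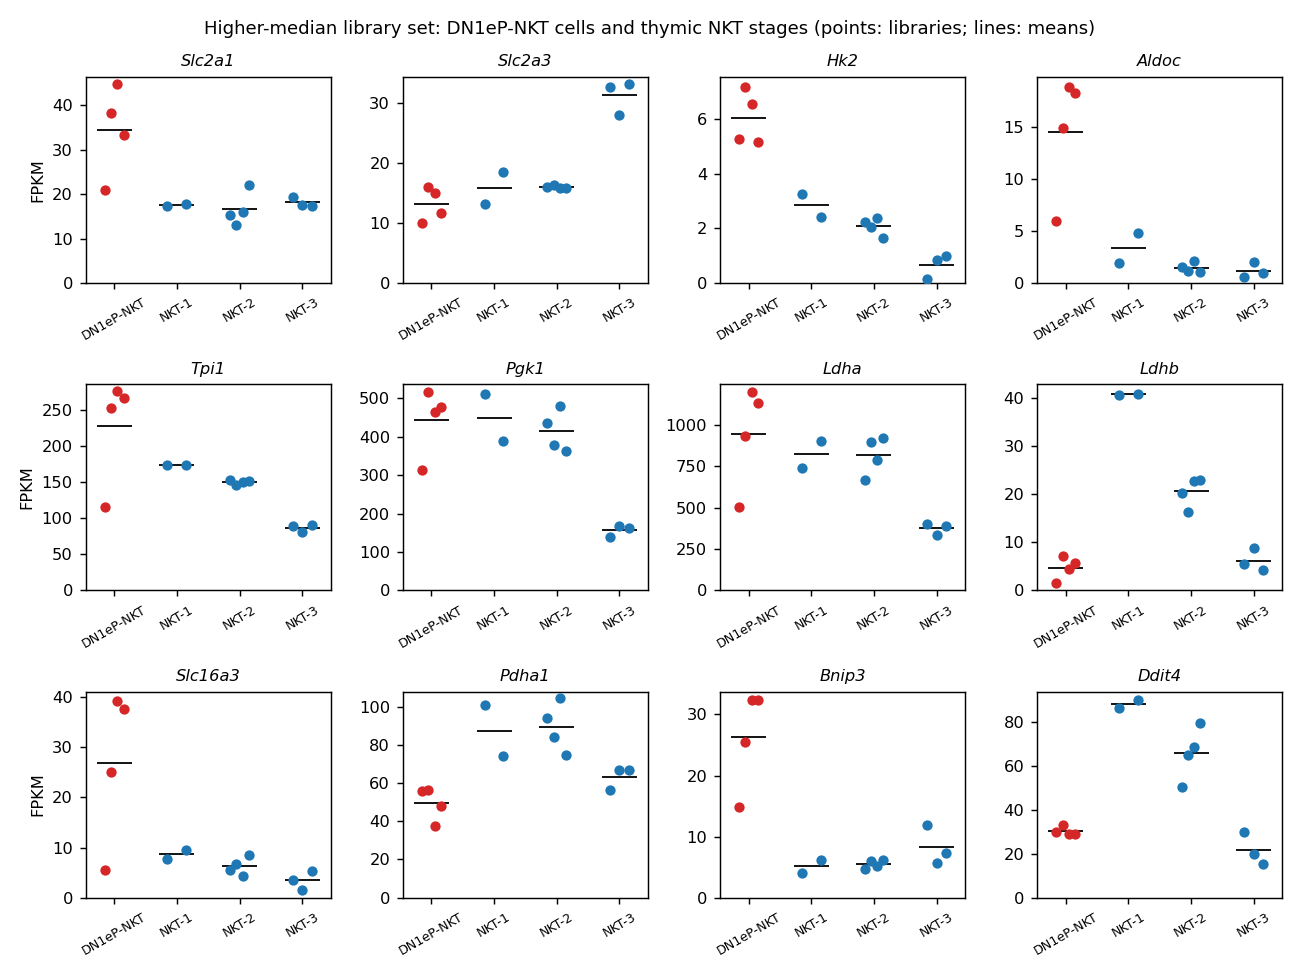
FPKM of 12 members (panels) in DN1eP-NKT (red) and thymic NKT stages 1 to 3 (blue) of the higher-median set; points are libraries and lines are means over 4, 2, 4 and 3 libraries. Hk2, Aldoc and Bnip3 are highest in DN1eP-NKT, Ldhb and Ddit4 fall over the stages, and Slc2a3 is highest in stage 3.

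DN1eP precursors, compared with the lower-median thymic libraries, had lower levels of 12 members and higher levels of 2 than stage 1 cells (18.9% and 14.7% of all genes, 33.7% in all). The median of the members was -0.50, against -0.07 over all genes tested. Against stage 2, 7 were lower and 3 higher (11.6% and 17.9% of all genes, 29.5% in all). Against stage 3, 2 were lower and 9 higher (4.41% and 16.2% of all genes, 20.6% in all), and with upper-quartile scaling, which shifted the all-gene median by -0.20, 7 were lower and 7 higher. Against the mean of the 3 stages, 9 were lower and 3 higher (14.4% and 20.8% of all genes, 35.3% in all). Without DN1eP library 1, the counts were 13 lower and 2 higher against stage 1, 9 and 4 against stage 2, and 4 and 10 against stage 3. Myeloid and mast cell transcripts (8 genes) summed to 411 to 472 FPKM in DN1eP, against at most 84.5 FPKM in the lower-median thymic libraries, with 4 of the 8 at 1 FPKM or more in every DN1eP library; their part in these results was not tested. B cell transcripts (6 genes) summed to 22.2 to 47.5 FPKM in DN1eP, against 0.105 to 2.39 FPKM in stage 1 of that set; Cd79b made up most of the sum, while Ms4a1 and Pax5 were listed at 0 in all 4 libraries, and their part was not tested either. Cell cycle transcripts summed to 66.8 to 103 FPKM in DN1eP, close to the 88.7 to 116 FPKM of stage 3 and under the 388 to 670 FPKM of stages 1 and 2 of that set.

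Pgam1, Hk1, Pfkl, Pgk1, Pgd, Pgls and Ddit4 were lower in DN1eP than in at least 2 of the 3 stages. Pgam1 (mm9 chr19:41986361-41993155) was at 33.8, 10.1, 10.1 and 13.9 FPKM in DN1eP, 81.6, 82.9 and 77.1 in stage 1, 67.3, 36.7 and 40.1 in stage 2 and 33.3, 23.0 and 21.2 in stage 3. It differed by -2.36 ± 0.29 from stage 1 (adjusted p = 8.98e-07) and by -1.57 ± 0.29 from stage 2 (adjusted p = 0.000257), without overlap, whereas the difference of -0.73 ± 0.29 from stage 3 did not pass (adjusted p = 0.0765). Library 1, the highest of the 4, lay above all stage 3 libraries. Hk1 was at 3.91, 2.57, 0.704 and 5.06 FPKM in DN1eP, 7.05, 5.98 and 14.1 in stage 1, 12.4, 9.12 and 11.8 in stage 2 and 12.2, 8.74 and 11.4 in stage 3. It differed by -1.37 ± 0.29, -1.71 ± 0.29 and -1.67 ± 0.29 from the 3 stages (adjusted p = 0.000778, 0.000104 and 0.000484), and no DN1eP library reached a thymic value. Pfkl was at 6.19, 2.85, 2.86 and 7.01 FPKM in DN1eP and at 9.57 to 28.4 in thymic libraries, again without overlap, with differences of -1.72 ± 0.28, -1.78 ± 0.28 and -1.27 ± 0.28 (adjusted p = 4.91e-05, 4.76e-05 and 0.00278). Pgk1 was at 204, 152, 109 and 135 FPKM in DN1eP and differed by -1.51 ± 0.23 from stage 1 (adjusted p = 1.77e-05) and by 0.41 ± 0.23 from stage 3 (adjusted p = 0.221). From stage 2, with 302, 165 and 235 FPKM, it overlapped and differed by -0.63 ± 0.23 (adjusted p = 0.0388), a call lost without any of DN1eP libraries 2, 3 and 4 and NKT-2 libraries 5 and 7.

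**Figure D5:**
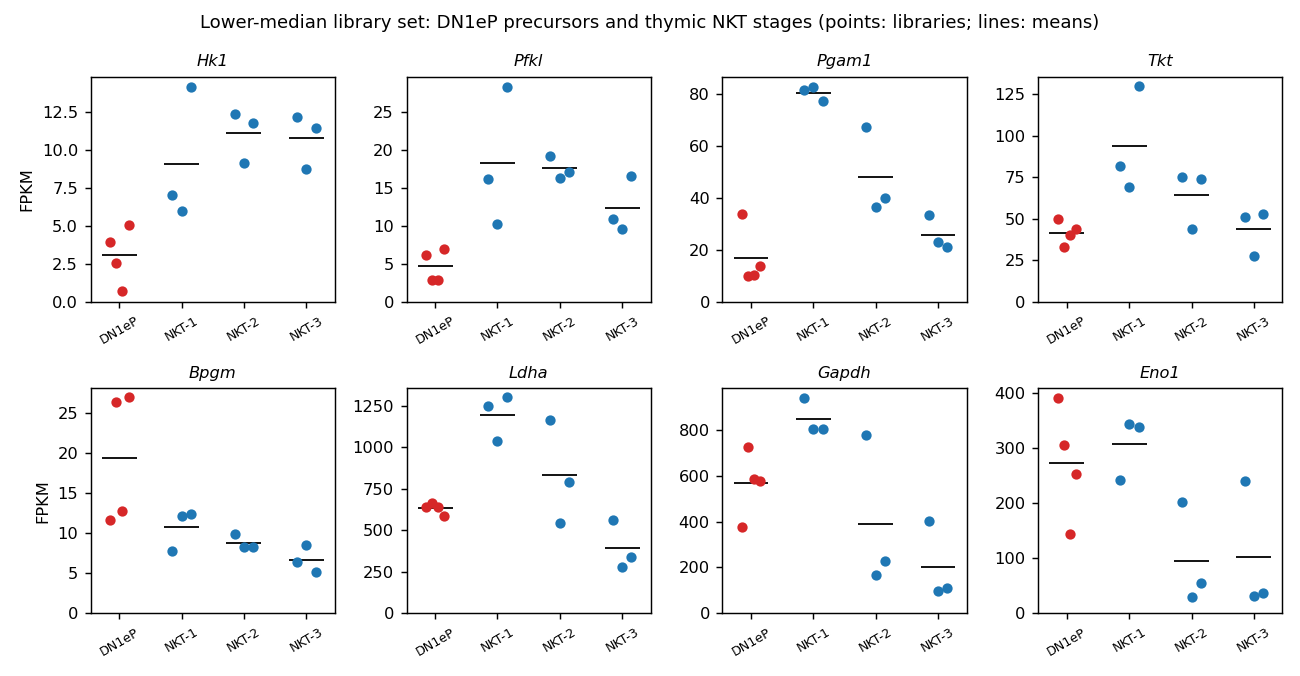
FPKM of 8 members (panels) in DN1eP (red, 4 libraries) and thymic NKT stages 1 to 3 (blue, 3 libraries each) of the lower-median set; points are libraries and lines are means. Hk1 and Pfkl are lower in every DN1eP library than in any thymic library, and Gapdh and Eno1 are low in 2 libraries each of stages 2 and 3.

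The other members that were lower than in stage 1 were Tpi1 (-1.27 ± 0.27), Tkt (-1.12 ± 0.24), Pgd (-1.06 ± 0.32), Pgls (-0.96 ± 0.30), Rpia (-0.92 ± 0.25), Ldha (-0.91 ± 0.27), Slc16a1 (-0.71 ± 0.25) and Ddit4, with adjusted p-values of 0.000659 to 0.0328. Tkt was at 49.8, 32.7, 39.9 and 43.8 FPKM in DN1eP, below the 81.5, 69.1 and 130 of stage 1 and within the 27.4 to 52.6 of stage 3. Ldha was at 641, 666, 637 and 583 FPKM in DN1eP, below the 1036 to 1303 of stage 1 and above the 278 to 560 of stage 3, where the difference of 0.75 ± 0.27 did not pass (adjusted p = 0.0505). Ddit4 was at 0.197 FPKM in library 1 and listed at 0 in libraries 2 to 4, with 0.637 to 2.30 FPKM in stage 1, so no size is given. Pgls was at 0.574, 0, 1.35 and 0.756 FPKM in DN1eP and 1.18 to 4.01 in stage 1. Rpia, Pgls, Ddit4, Slc16a3, Egln3 and Vegfa stood at most at 4.17 FPKM in any library of the lower-median set. Differences in these genes rest on low values. Pgd and Pgls were also lower than in stage 2, by -1.01 ± 0.32 (adjusted p = 0.0181) and -1.17 ± 0.30 (adjusted p = 0.00503), the call of Pgd being lost without any of 4 libraries; Ddit4 passed too (adjusted p = 0.00720), but not without NKT-2 library 6. Against stage 1, the call of Slc16a1 was lost without DN1eP library 1 (adjusted p = 0.0951) or any of 5 other libraries, that of Pgd without DN1eP library 3 or NKT-1 library 5, and that of Pgls without DN1eP library 2 or NKT-1 library 4.

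Bpgm and Vegfa were the members that were higher in DN1eP than in each stage. Bpgm, which makes the bisphosphoglycerate that tunes haemoglobin in red cells, was at 11.6, 26.4, 12.8 and 27.0 FPKM in DN1eP, 7.80, 12.2 and 12.4 in stage 1, 9.88, 8.22 and 8.22 in stage 2 and 6.39, 8.45 and 5.16 in stage 3. DN1eP libraries 2 and 4 were well above all thymic libraries, while library 1 overlapped stage 1. It differed by 0.72 ± 0.27, 0.97 ± 0.27 and 1.34 ± 0.27 from stages 1 to 3 (adjusted p = 0.0449, 0.00931 and 0.00151), and the first of these was lost without any of several libraries. Erythroid transcripts (7 genes) summed to at most 0.55 FPKM in DN1eP. Vegfa, the vascular growth factor gene induced by hypoxia, was listed at 0 in DN1eP library 1 and was at 1.497, 2.26 and 1.97 FPKM in libraries 2 to 4, against at most 0.0785 FPKM in thymic libraries of the set. Its differences were 1.10 ± 0.35, 1.14 ± 0.35 and 1.13 ± 0.35 (adjusted p = 0.0170, 0.0162 and 0.0230) and rose to 1.49 or more without library 1. Without DN1eP library 3 or 4 none of the 3 calls remained.

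The other members that were higher in DN1eP than in stage 3 were Eno1 (1.96 ± 0.56), Ldhb (1.83 ± 0.36), Gapdh (1.77 ± 0.46), Gpi1 (0.91 ± 0.25), Egln3 (0.71 ± 0.25), Pdha1 (0.65 ± 0.18) and G6pdx (0.57 ± 0.20). Egln3 rests on low values, at 0.493, 0.368, 1.11 and 1.25 FPKM in DN1eP and 0.193, 0.015 and 0.0411 in stage 3. Its call was lost without any of several single libraries. Gapdh was at 377, 728, 587 and 576 FPKM in DN1eP and at 402, 94.6 and 111 FPKM in NKT-3 libraries 4 to 6, so that library 4 lay within the DN1eP range. Without NKT-2 libraries 6 and 7 and NKT-3 libraries 5 and 6, a single stage 2 and a single stage 3 library were left in the set, and their spread was taken to be that of the other groups. No member then passed as higher and 1, Hk1, passed as lower than in stage 3, and 5 were lower and 0 higher than in stage 2. The difference from stage 3 became 0.096 for Eno1, 0.46 for Gapdh and 0.19 for Gpi1. It was 1.48 for Ldhb, 0.75 for G6pdx, 0.56 for Egln3 and 0.44 for Pdha1, and for the members described above 1.37 for Bpgm and 1.11 for Vegfa, with adjusted p-values of 0.104 to 0.445 for these 6. Leaving out NKT-3 library 6 alone left 4 calls against stage 3 and leaving out library 5 alone left 6. Ldhb was at 25.0, 58.7, 74.1 and 68.5 FPKM in DN1eP, above the 18.1, 15.6 and 9.71 of stage 3 in every library (adjusted p = 0.00112).

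DN1eP-NKT and DN1eP share no library set, so each was expressed relative to the thymic NKT mean of its own set and the relative values were compared. On that scale 15 members were higher and 3 lower in DN1eP-NKT than in DN1eP (15% and 16.6% of all genes, 31.6% in all), with a median of 0.41 against -0.04 over all genes. That the set difference seen in thymic cells holds for these cell types is assumed and cannot be told apart from a difference between the cells. The largest were Slc16a3 (2.06 ± 0.45, adjusted p = 0.00125), Aldoc (1.81 ± 0.42, adjusted p = 0.00179), Hk1 (1.75 ± 0.33, adjusted p = 0.000227), Pgam1 (1.63 ± 0.33, adjusted p = 0.000488), Bnip3 (1.48 ± 0.32, adjusted p = 0.00122) and, in the other direction, Ldhb (-2.42 ± 0.40, adjusted p = 6.17e-05) and Bpgm (-1.56 ± 0.31, adjusted p = 0.000436). Slc16a3 was at most at 0.0893 FPKM in DN1eP and 0.579 in thymic libraries of that set. Its value thus rests mostly on the difference of 1.79 between DN1eP-NKT and its thymic mean. Ratios within a library differed in the same direction for lactate dehydrogenase. That of Ldha to Ldhb was 132 to 319 in DN1eP-NKT libraries, where thymic libraries of the set had 18.3 to 94.6. It was 8.51 to 25.6 in DN1eP libraries, where thymic libraries of the set had 9.69 to 34.8. The ratio of Slc2a1 to Slc2a3 was 2.09 to 2.97 in DN1eP-NKT libraries, where thymic libraries of the set had 0.525 to 1.39, and 0.367 to 0.652 in DN1eP libraries, where thymic libraries of the set had 0.282 to 1.85. Pdha1 was also lower on that relative scale (-0.78 ± 0.20, adjusted p = 0.00492).

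Other genes of the same pathways were counted from a list of 65 symbols, of which 62 were in the files and 50 could be tested. Between stages 3 and 1, 16 of the 50 fell and 8 rose (26.5% and 10.6% of all genes). The 4 with the largest changes were Bhlhe40, a hypoxia-induced repressor (3.81 ± 0.56), Pgam2 (-2.33 ± 0.34), Txnip, an inhibitor of glucose uptake that is itself induced by glucose (2.24 ± 0.28), and Anln (-2.15 ± 0.23). Txnip was at 198, 140 and 121 FPKM in stage 3 and 29.4 and 26.7 in stage 1 of the higher-median set. Pkm2, the pyruvate kinase gene under its older symbol, was named after its values were seen: it fell by 1.51 ± 0.20 (adjusted p = 1.14e-06), with 281, 252 and 288 FPKM in stage 3 and 585 and 811 in stage 1 of that set. Stage 3 against stage 2 gave 7 lower and 7 higher (18.4% and 10.6% of all genes), led by Txnip (2.23), Bhlhe40 (2.17), Anln (-1.74) and Pdk3 (-1.23), and stage 2 against stage 1 gave 1 lower, Pgam2 (-1.85), and 0 higher (0.437% and 0.566% of all genes). Against the thymic mean, DN1eP-NKT had 8 higher and 5 lower (13.5% and 9.10% of all genes), led by Slc2a6 (2.69), Ndrg1 (2.06), Bhlhe40 (1.81) and P4ha2 (1.64). Bhlhe40 was at 54.3 to 89.1 FPKM in DN1eP-NKT libraries, above stages 1 and 2 of the set but below the 98.6 to 161 FPKM of stage 3. Ndrg1, which is induced by hypoxia, was at 21.1, 18.2, 16.6 and 20.4 FPKM in DN1eP-NKT libraries and at most 5.10 in thymic libraries of the set. Slc2a6 was at 18.9, 3.74, 2.51 and 6.45 FPKM in the same DN1eP-NKT libraries. P4ha2 was at 0.266, 3.18, 4.29 and 5.86 FPKM there, with library 1 below the highest thymic value of the set, 0.773 FPKM. The part of the stromal layer in these values was not tested. Against the thymic mean, DN1eP had 16 higher and 11 lower (20.8% and 14.4% of all genes), led by Bhlhe40 (3.12), Slc16a6 (1.56), Slc2a6 (1.44) and Pdk3 (-1.22).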

How the data were processed

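RNA of 26 libraries was sequenced by the authors, who aligned reads to mm9 with TopHat2 2.0.6 and estimated levels with Cufflinks 2.1.1, per the submitters' processing notes. The deposited values are FPKM per gene interval, normalised by the authors for length and depth; read counts are not given in the sources used here, so depth was judged from the deposited 95% intervals. Symbols absent from 1 or more files (86 of 23267) and those whose estimate had failed (11) were not used. Where a symbol had several rows, the alternative of taking the highest was tried. The 11665 genes that reached 1 FPKM in 4 or more libraries were transformed to log2(FPKM + 1), a scale that understates changes of low genes. They were fitted with limma 3.58.1 in R 4.3.3 with an intensity trend and robust variances, a mean for each of 8 combinations of group and library set, and Benjamini-Hochberg adjustment over all genes at 0.05. The library sets were found in the data and are not in the labels. The 9 thymic libraries in each set entered every fit. The fit was checked on simulated data.

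The members and lists were chosen with earlier results of these data known. Per comparison, up to 8 called members with the largest differences and up to 4 called pathway genes were named, with 17 members of set interest named at least once. Alternatives were a pseudocount of 0.1, a filter of 5 FPKM or none, upper-quartile scaling, models without the set or with it as an additive term, a replicate block, the gene-interval version as a term, single sets, and left-out libraries. Promoter sequences are from RefSeq (GRCm38.p6) and gene intervals from the deposited files (mm9).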

Additional observations from a re-analysis of the deposited data

Results flagged for a closer look

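In groups of 4 to 7 libraries, 11 of 210 combinations of member and group held a library far from the others by Dixon's criterion at 95%. Each thymic stage was taken with both library sets together, and the higher-median NKT-2 libraries were also taken alone. The nominal rate of 1 in 20 therefore does not apply, and the 11 are not set against it. DN1eP-NKT library 1, which had the lowest sum of stroma transcripts, was low for Tpi1 at 115 FPKM (254 to 276 in the other libraries), Eno1 at 340 FPKM (446 to 470), Slc16a1 at 12.2 FPKM (22.04 to 24.8) and Pfkfb3 at 8.72 FPKM (12.7 to 13.1). That library also had the narrowest deposited intervals of its group. In DN1eP library 1, Slc16a3 was at 0.0893 FPKM and Ddit4 at 0.197 FPKM, while both were listed at 0 in libraries 2 to 4. With those libraries tied at 0, any value above 0 in library 1 meets the criterion, so these flags carry no weight. Gapdh was high in NKT-1 library 2 at 1552.5 FPKM (804 to 970 in the others). NKT-2 library 6 was low for Tpi1 at 57.7 FPKM (106 to 153), and NKT-2 library 5 was high for Taldo1 at 294 FPKM (147 to 192). Hk2 was low in NKT-3 library 1 at 0.157 FPKM (0.839 to 1.39). Among the NKT-2 libraries of the higher-median set, Rpia was low in library 1 at 29.5 FPKM (34.3 to 34.98).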

How the results depend on the processing

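Counts of called members stayed within 1.5 times of the reported ones under a pseudocount of 0.1, either filter, the gene-interval version as a term and the highest row per symbol. Upper-quartile scaling gave 1 member for stage 2 against stage 1 (0 as reported). An additive library set gave 18 for DN1eP against NKT-3 (11 as reported). A model without the set gave 9 for NKT-3 against NKT-2 (17 as reported) and 14 for NKT-3 against NKT-1 (23 as reported), which was also the count in the higher-median set alone; the lower-median set alone gave 8 for NKT-3 against NKT-2. Dropping library 6 of NKT-2 together with library 5 of NKT-3, DN1eP against NKT-3 had 7 members, and without NKT-2 libraries 6 and 7 and NKT-3 libraries 5 and 6 it had 1, while DN1eP against NKT-2 had 5 (10 as reported). Fewer samples enter these last fits; elsewhere the cause was not tested. Replicate numbers in the labels do not pair the libraries throughout. Of 44 same-numbered pairs, 11 had deviations correlated above 0.1 and 20 below 0 (-0.34 to 0.48). Of 26 libraries, 7 were closest to one of their own number. The highest values joined first replicates in the higher-median set. They were 0.48 between cultured cells and stage 1, 0.44 between stages 1 and 2, and 0.43 between cultured cells and stage 2. The first stage 3 replicate did not follow, at -0.068, -0.043 and -0.10 with cultured cells, stage 1 and stage 2. Whether those that correlated share a batch was not tested. With the replicate block, DN1eP against NKT-2 gave 3 members, DN1eP against NKT-3 gave 3, and the relative comparison of DN1eP-NKT with DN1eP gave 11 (18 as reported). Leaving out 1 library at a time gave 11 to 15 members for DN1eP against NKT-1, 8 to 14 against NKT-2, 4 to 14 against NKT-3 and 9 to 14 against their mean. For DN1eP-NKT it gave 3 to 9 against NKT-1, 10 to 14 against NKT-2, 13 to 17 against NKT-3 and 10 to 16 against the mean. It gave 0 to 3 for NKT-2 against NKT-1 (3 without DN1eP library 1 and 2 without DN1eP-NKT library 1, which enter through the shared variance, and 1 without NKT-1 library 5 or NKT-2 library 5), 13 to 20 for NKT-3 against NKT-2, 20 to 24 for NKT-3 against NKT-1, 16 to 20 for the relative comparison and 25 to 28 for the library sets. Upper-quartile scaling reversed the set difference of Tpi1 (-0.16) and Pgk1 (-0.092). Without the set in the model, these differences changed sign: Egln3 in DN1eP against NKT-3 (-0.036), Pfkfb3 in DN1eP-NKT against NKT-1 (0.0055) and the thymic mean (0.075), and Ddit4 in DN1eP-NKT against NKT-1 (1.71), NKT-2 (1.10) and the mean (1.75). All DN1eP-NKT libraries are in 1 set and all DN1eP libraries in the other, so set and cell type cannot be told apart for them beyond the thymic libraries.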
